A study of Homo sapiens with 12 samples.

Results

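HOXA3, HOXA5, HOXA6, HOXA7, HOXA9, HOXA10, MEIS1, PBX3, MEF2C and MYB are 10 genes of the homeobox and partner network that sustains self-renewal in acute myeloid leukaemia (AML). They were taken by symbol, and all 10 had a row in both count tables, among 17099 genes listed for OCI-AML2 and 16820 for MOLM-13. OCI-AML2 and MOLM-13 are established human AML cell lines, both labelled as leukemic blasts. The groups were OCI-AML2 cells with selinexor at 200 nM, OCI-AML2 cells with vehicle (DMSO), MOLM-13 cells with selinexor at 75 nM and MOLM-13 cells with vehicle, each kept for 36 h and each measured in 3 biologically independent RNA-seq libraries. Selinexor is an inhibitor of exportin 1 (XPO1), the carrier that takes proteins with a nuclear export signal out of the nucleus. Each line stands for 1 culture model at 1 dose and 1 time, and since the doses differ, line and dose cannot be told apart wherever the lines are compared.

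HOXA proteins are DNA-binding homeodomain factors encoded in a single cluster, whose posterior members HOXA9 and HOXA10 are high in myeloid progenitors and are normally shut down as those cells mature. They bind DNA together with TALE-class homeodomain cofactors, of which MEIS1 and PBX3 are the ones most tied to leukaemia. Fusions of the histone methyltransferase KMT2A, such as the KMT2A-MLLT3 fusion known from MOLM-13, hold HOXA9, MEIS1 and MEF2C at a high level, and MYB, a factor of progenitor cells, is needed for the leukaemias that result.

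Libraries held 8114892 to 11769061 counts, so that 3 counts, taken as the limit that a count of 0 allows, were worth 0.249 to 0.375 CPM, the count relative to a library's total. All 10 genes passed the filter on low counts in both lines. No libraries were identical, and among pairs within a group the largest spread beyond counting error, a chi-square of 5.56 per degree of freedom, was between vehicle libraries 2 and 3 of OCI-AML2. The value was 4.04 between vehicle libraries 1 and 2 of that line and 2.22 between 1 and 3, so vehicle library 2 was in both wider pairs. Library numbers below only name a library. Levels are CPM scaled by the trimmed mean of M values (TMM), and a gene is said to have risen or fallen where edgeR's quasi-likelihood test gave a Benjamini-Hochberg adjusted p under 0.05 over all genes tested.

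In GENCODE 29 (GRCh38), the 6 HOXA members lie on the minus strand of chromosome 7: HOXA3 (ENSG00000105997) at chr7:27106184-27152581, HOXA5 (ENSG00000106004) at chr7:27141052-27143668, HOXA6 (ENSG00000106006) at chr7:27145396-27150603, HOXA7 (ENSG00000122592) at chr7:27153716-27157936, HOXA9 (ENSG00000078399) at chr7:27162435-27175180 and HOXA10 (ENSG00000253293) at chr7:27170591-27180261. MEIS1 (ENSG00000143995) is at chr2:66433452-66573869 on the plus strand, PBX3 (ENSG00000167081) at chr9:125747345-125967377 on the plus strand, MEF2C (ENSG00000081189) at chr5:88717117-88904257 on the minus strand and MYB (ENSG00000118513) at chr6:135181315-135219173 on the plus strand. The span of HOXA3 holds those of HOXA5 and HOXA6, and the spans of HOXA9 and HOXA10 overlap.

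The promoter stretches of the 4 members on which the comparison turns are shown here: HOXA9 and HOXA10, whose changes had opposite signs in the lines, MEIS1, which was lower with selinexor in both, and MYB, which was higher in both. Each runs from 250 bases before to 50 bases after a start site in RefSeq (GRCh38.p14), 5′ to 3′ on the gene's strand. HOXA9 is at chr7:27165488-27165787 on the minus strand, HOXA10 at chr7:27179812-27180111 (window 1) and chr7:27174271-27174570 (window 2) on the minus strand, MEIS1 at chr2:66434875-66435174 on the plus strand and MYB at chr6:135181058-135181357 on the plus strand. Capitals mark matches, on either strand, to the E-box CACGTG, the CCAAT box CCAAT, the MEIS motif TGACAG, the HOX-PBX motif TGATNNAT and the E2F core GGCGGGA.
HOXA9: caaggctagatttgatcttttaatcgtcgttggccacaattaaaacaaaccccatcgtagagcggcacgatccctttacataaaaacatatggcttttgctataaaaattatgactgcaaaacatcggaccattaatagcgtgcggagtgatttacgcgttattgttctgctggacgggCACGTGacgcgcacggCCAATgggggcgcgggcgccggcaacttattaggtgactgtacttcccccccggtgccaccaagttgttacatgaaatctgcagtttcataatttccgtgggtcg
HOXA10 window 1: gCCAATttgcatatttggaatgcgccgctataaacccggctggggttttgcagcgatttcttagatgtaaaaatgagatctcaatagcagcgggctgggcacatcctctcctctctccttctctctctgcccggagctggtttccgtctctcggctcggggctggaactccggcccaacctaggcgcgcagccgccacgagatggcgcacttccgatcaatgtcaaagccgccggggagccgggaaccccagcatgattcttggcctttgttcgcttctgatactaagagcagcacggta
HOXA10 window 2: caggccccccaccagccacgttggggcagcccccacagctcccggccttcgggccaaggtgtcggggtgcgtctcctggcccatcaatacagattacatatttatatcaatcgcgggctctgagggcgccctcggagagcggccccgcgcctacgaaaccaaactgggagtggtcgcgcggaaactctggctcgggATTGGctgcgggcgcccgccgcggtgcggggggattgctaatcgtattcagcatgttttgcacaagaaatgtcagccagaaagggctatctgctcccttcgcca
MEIS1: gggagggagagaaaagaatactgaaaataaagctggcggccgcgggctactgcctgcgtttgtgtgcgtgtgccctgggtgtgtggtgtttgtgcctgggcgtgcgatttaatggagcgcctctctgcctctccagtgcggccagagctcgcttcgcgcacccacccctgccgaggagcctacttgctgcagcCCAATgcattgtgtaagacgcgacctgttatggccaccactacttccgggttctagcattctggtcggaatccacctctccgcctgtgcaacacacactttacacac
MYB: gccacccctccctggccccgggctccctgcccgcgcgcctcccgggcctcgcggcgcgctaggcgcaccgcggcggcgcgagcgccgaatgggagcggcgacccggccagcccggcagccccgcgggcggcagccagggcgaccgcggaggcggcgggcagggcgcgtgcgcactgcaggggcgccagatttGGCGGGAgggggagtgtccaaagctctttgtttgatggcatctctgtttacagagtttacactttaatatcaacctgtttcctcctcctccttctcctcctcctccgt

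A CCAAT box, the letters read by the factor NF-Y, began at position -55 from the start in HOXA9, -249 and -54 in the HOXA10 windows and -57 in MEIS1, and 34.6% of 35116 RefSeq promoter windows of the same length hold one. HOXA9 also held the E-box, the letters read by MYC and its relatives, at position -71, and 7.26% of all windows hold it. MYB held the E2F core at position -58, as 15.4% of windows do. None of the 5 windows held the MEIS or HOX-PBX letters, which occur in 15.8% and 7.4% of windows. Among windows not printed, the MEIS letters were in the PBX3 window and in 3 of the 7 MEF2C windows, and the HOX-PBX letters occurred 2 times in 1 MEF2C window. The E-box was also in the HOXA7 window and in HOXA3 window 6, and the E2F core in the PBX3 window and HOXA3 window 7. A CCAAT box was also in the HOXA6 and HOXA7 windows, HOXA3 window 1 and MEF2C window 3. A TATA box TATAAA (11.5% of windows), not put in capitals, began at -150 in HOXA9 and at -222 and -150 in HOXA10 windows 1 and 2. Among windows not printed, it began at -29 in HOXA3 window 1. The MYB letters AACNG (77.2% of windows) were in 4 of the 5 printed windows, all but HOXA10 window 1. No match overlapped another in the printed windows. RefSeq windows were at hand for 9 members, and HOXA5 was not among them.

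With selinexor, 9 of the 10 genes changed in OCI-AML2, where 63.1% of all 12086 genes tested did. HOXA3, HOXA5, HOXA6, HOXA9, HOXA10 and MYB rose (6 of 10, against 31.3% of all genes), MEIS1, PBX3 and MEF2C fell (3 of 10, against 31.8%), and HOXA7 was not called. In MOLM-13, 5 of the 10 changed, against 63.6% of 11807 genes: MYB rose (1 of 10, against 31.8%), and HOXA9, HOXA10, MEIS1 and MEF2C fell (4 of 10, against 31.8%). The selinexor and vehicle libraries did not overlap for 9 of the 10 genes in OCI-AML2, as for 66.3% of all genes, and for 7 of the 10 in MOLM-13, as for 65.5%. The members' median log2 fold change was 0.37 in OCI-AML2, beside -0.0016 over all genes, and -0.18 in MOLM-13, beside 0.0091. So many genes responded that a call by itself sets none of these genes apart. In bulk RNA, fewer cells expressing a gene and less RNA per cell cannot be told apart.

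**Figure D1:**
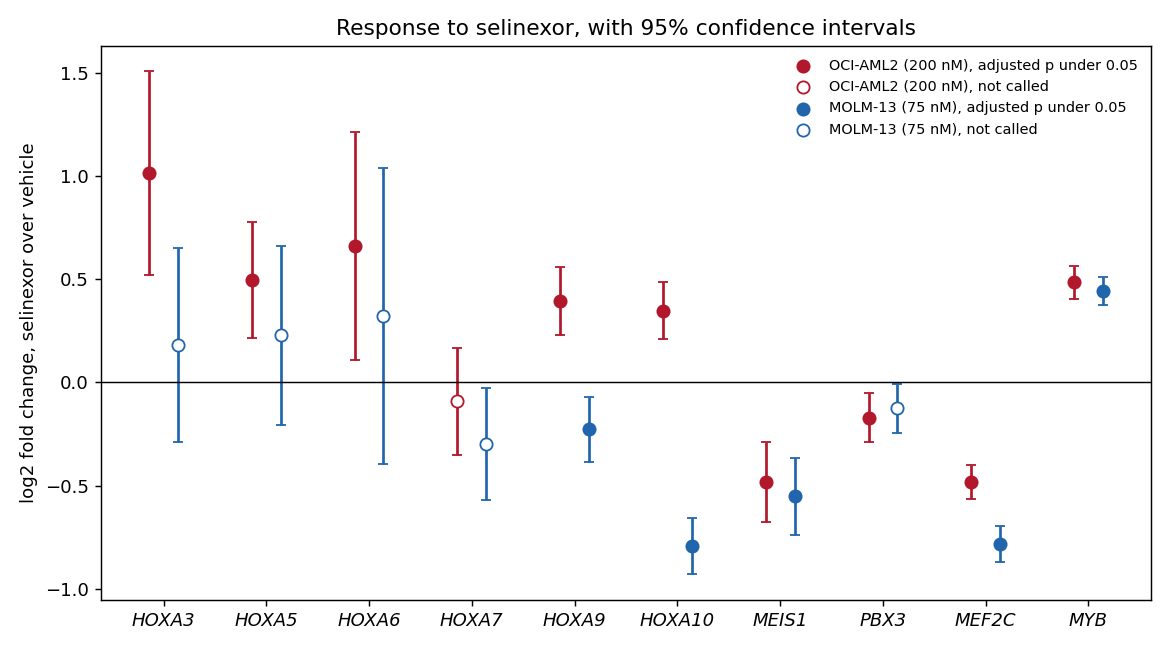
Log2 fold change of selinexor over vehicle (vertical axis) for the 10 genes in OCI-AML2 (red) and MOLM-13 (blue), with 95% confidence intervals from 3 libraries per group. Filled points passed the adjusted p threshold. HOXA10 lies at 0.35 in OCI-AML2 and at -0.79 in MOLM-13, while MYB lies at 0.49 and 0.44.

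HOXA10, a posterior HOXA factor that blocks myeloid maturation when held high, differed most between the lines among the 10 genes. In OCI-AML2 it had 59.3, 63.1 and 68.6 CPM with selinexor and 48.2, 49.7 and 52.3 CPM with vehicle. In MOLM-13 it had 40.1, 43.5 and 45.1 CPM with selinexor and 70.9, 74.9 and 77.1 CPM with vehicle. Selinexor libraries were all above vehicle in OCI-AML2 and all below vehicle in MOLM-13. The log2 fold change was 0.35 ± 0.069 (SE) in OCI-AML2 (edgeR adjusted p = 2.64e-05) and -0.79 ± 0.070 in MOLM-13 (adjusted p = 1.20e-18), which is a level 0.577 times that of vehicle. In a fit of all 12 libraries scaled together, the difference between the lines was 1.19 ± 0.099 (edgeR adjusted p = 7.53e-18). It ranked at place 65 of 12530 genes by p, and the median difference over all genes was 0.040. Differences between the lines given below come from this fit. They need not equal the gap between the changes fitted within each line, which were scaled apart.

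HOXA9, the cluster's best known leukaemia driver and the direct partner of MEIS1 and PBX3, also rose in OCI-AML2 and fell in MOLM-13. It had 44.5, 43.1 and 47.1 CPM with selinexor and 38.8, 30.5 and 33.7 CPM with vehicle in OCI-AML2, a log2 fold change of 0.39 ± 0.082 (edgeR adjusted p = 6.03e-05). Its MOLM-13 levels were 38.2, 42.5 and 40.7 CPM with selinexor and 43.5, 49.2 and 49.3 CPM with vehicle, a log2 fold change of -0.23 ± 0.079 (adjusted p = 0.00879). The groups did not overlap in either line. The fall in MOLM-13 lost its call without selinexor library 1 (-0.19), without vehicle library 3 (-0.20) and under upper quartile scaling (-0.16), with an adjusted p of 0.00246 to 0.0737 over 13 alternatives. The difference between the lines was 0.67 ± 0.11 (adjusted p = 1.60e-06).

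Per kilobase of exon, HOXA3, HOXA5, HOXA6 and HOXA7, nearer the 3′ end of the cluster, were lower than HOXA9 and HOXA10 in all 4 groups. HOXA3, an anterior HOXA factor, had 6.37, 4.21 and 4.84 CPM with selinexor and 2.47, 2.57 and 2.51 CPM with vehicle in OCI-AML2, and rose by 1.02 ± 0.24 on the log2 scale (edgeR adjusted p = 0.000383). MOLM-13 libraries had 5.65, 4.275 and 3.999 CPM with selinexor and 4.011, 4.596 and 3.66 CPM with vehicle. The MOLM-13 groups overlapped, with a log2 fold change of 0.18 and a 95% interval of -0.29 to 0.65. The lines differed by 0.88 ± 0.35 (adjusted p = 0.0455), but this lost its call in 15 of 18 alternatives, with adjusted p from 0.0246 to 0.164. Libraries held only 24 to 54 HOXA3 counts.

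HOXA5, a regulator of myeloid lineage choice, had 12.9, 16.7 and 12.6 CPM with selinexor and 10.9, 10.2 and 8.88 CPM with vehicle in OCI-AML2, a log2 fold change of 0.50 ± 0.14 (edgeR adjusted p = 0.00208). Its highest value was in selinexor library 2, without which the change was 0.35 and lost its call (adjusted p of 0.000697 to 0.0521 over 13 alternatives). HOXA6, its neighbour in the cluster, had 3.07, 5.82 and 3.26 CPM with selinexor and 2.99, 1.99 and 2.78 CPM with vehicle. The same library was again the highest: HOXA6 rose by 0.66 ± 0.27 (adjusted p = 0.0334), but by 0.31 without selinexor library 2 and 0.49 without vehicle library 2, neither of them called. The call was also lost with DESeq2 (0.66) and with library totals only (0.61), and the adjusted p was 0.0177 to 0.416 over 13 alternatives. In MOLM-13 neither gene was called: HOXA5 averaged 5.61 ± 0.65 CPM with selinexor and 4.83 ± 0.91 CPM with vehicle (SD, n = 3 each), and HOXA6 1.97 ± 0.80 and 1.63 ± 0.61 CPM in the same order of groups. Their 95% intervals, -0.21 to 0.66 for HOXA5 and -0.40 to 1.04 for HOXA6, include the changes measured in OCI-AML2.

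HOXA7, a HOXA factor induced by KMT2A fusions, was the one member called in neither line. It averaged 12.3 ± 1.3 CPM with selinexor and 13.1 ± 0.38 CPM with vehicle in OCI-AML2, where the groups overlapped. In MOLM-13 it had 12.2, 11.0 and 12.5 CPM with selinexor and 15.8, 12.7 and 15.3 CPM with vehicle, with no overlap, and the log2 fold change of -0.30 ± 0.14 missed the threshold (edgeR adjusted p = 0.0504). It passed in 6 of 13 alternatives, among them without selinexor library 3 (-0.33) and without vehicle library 2 (-0.39), with adjusted p from 0.0196 to 0.177. Exons of the antisense transcript HOXA-AS3 cover 62.5% of HOXA7's exonic bases and 39.3% of HOXA6's in GENCODE 29, and since the libraries do not keep strand, reads of the partners cannot be told apart. HOXA10-AS likewise covers 16.4% of HOXA10's and 13.9% of HOXA9's exonic bases. The same-strand transcript AC004080.3 shares 9.93% of HOXA10's and 13.1% of HOXA9's exonic bases.

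**Figure D2:**
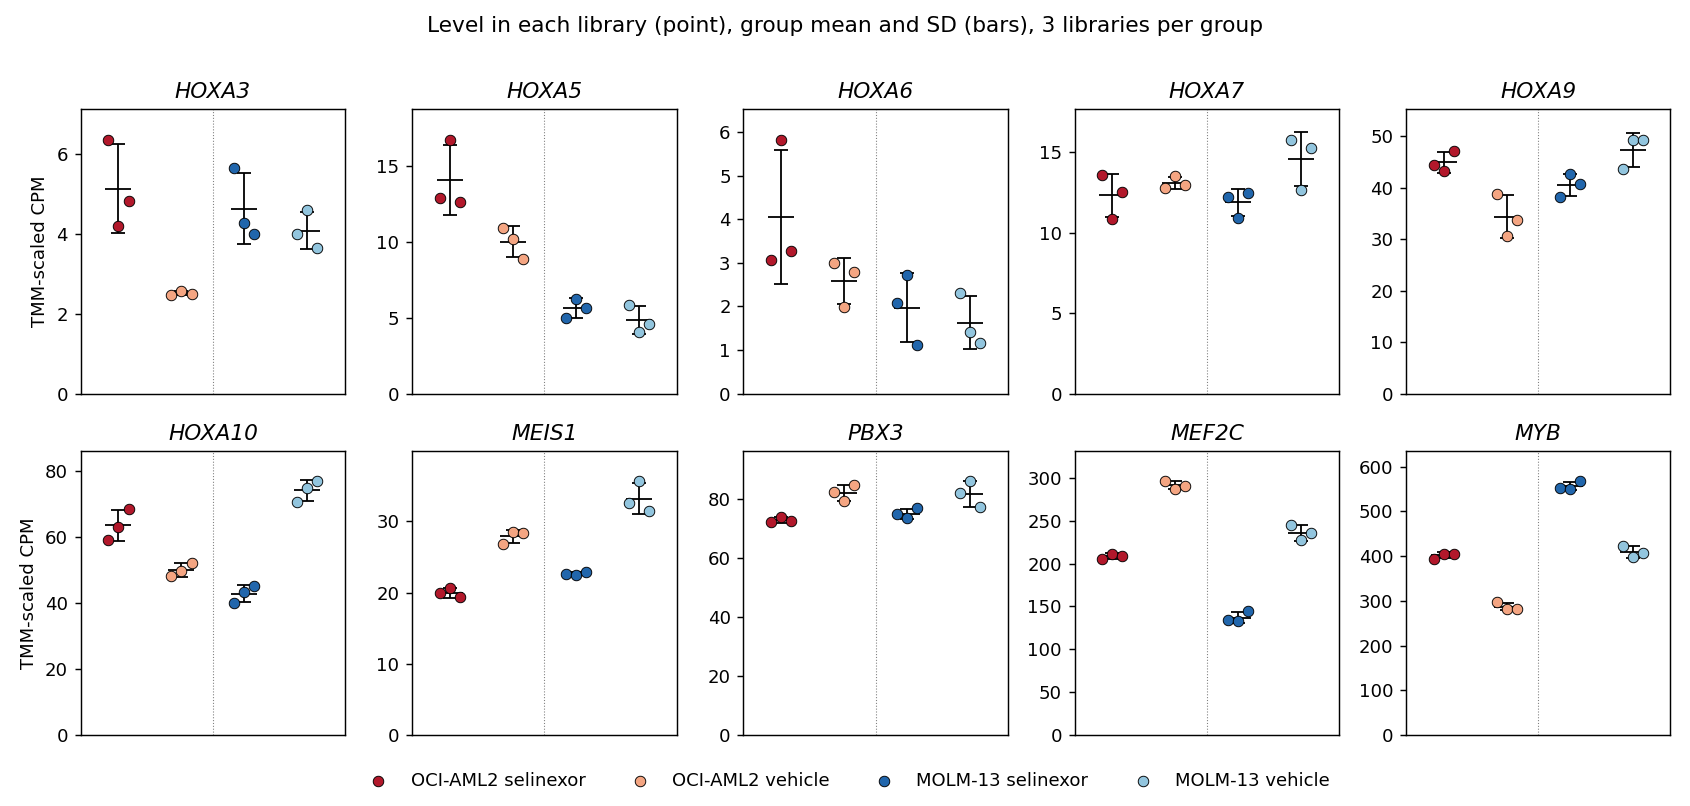
TMM-scaled CPM (vertical axes from 0) of the 10 genes in each library (points), with group mean and SD (bars, n = 3), for OCI-AML2 (red, left) and MOLM-13 (blue, right), selinexor dark and vehicle light. HOXA10 shows selinexor above vehicle in OCI-AML2, at means of 63.7 and 50.1 CPM, and below it in MOLM-13, at 42.9 and 74.3 CPM.

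The 5′ end of the cluster fell in MOLM-13 as well. HOXA11, a factor of limb and urogenital development, had 18.2, 15.02 and 16.6 CPM with selinexor and 28.1, 28.6 and 25.7 CPM with vehicle in MOLM-13, and fell by 0.72 ± 0.11 on the log2 scale (edgeR adjusted p = 3.65e-09). HOXA13, the last gene of the cluster, had 11.2, 13.2 and 10.6 CPM with selinexor and 25.8, 22.4 and 24.3 CPM with vehicle in MOLM-13, a log2 fold change of -1.04 ± 0.12 (adjusted p = 5.08e-13). In OCI-AML2 HOXA11 averaged 28.8 ± 2.6 CPM with selinexor and 29.5 ± 0.85 CPM with vehicle and was not called, and HOXA13 held 0 to 3 counts per library. HOXA11's difference between the lines was 0.75 ± 0.14 (adjusted p = 1.15e-05). HOXA11 and HOXA13 were also called in MOLM-13 by DESeq2. HOXA2 and HOXA4 were under the filter in both lines.

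Of 7 noncoding or readthrough transcripts of the cluster, 3 were tested in each line, and 2 of them fell in MOLM-13, where 31.8% of all genes fell. HOXA10-AS had 26.9, 31.4 and 30.5 CPM with selinexor and 42.2, 40.7 and 42.8 CPM with vehicle in MOLM-13 and fell by 0.50 ± 0.086 on the log2 scale (edgeR adjusted p = 2.34e-07). HOXA11-AS fell by 0.58 ± 0.14 there (adjusted p = 0.000284). By edgeR 0 of the 3 tested passed in OCI-AML2, where 63.1% of all genes did. HOXA10-AS had a log2 fold change of 0.19 and an edgeR adjusted p of 0.067 there. It was the 1 transcript with an unadjusted p under 0.05 there; DESeq2 and limma voom also called 0, and upper quartile scaling and the fit of all 12 libraries called HOXA10-AS. The difference between the lines was called for HOXA10-AS, at 0.74 ± 0.13 (adjusted p = 1.26e-06), and for HOXA11-AS, at 0.63 ± 0.19 (adjusted p = 0.00717), which lost its call without OCI-AML2 vehicle library 2 (0.42) or MOLM-13 vehicle library 2 (0.42). Both antisense transcripts share exonic bases with the coding genes named above, so their values are not independent of them.

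**Figure D3:**
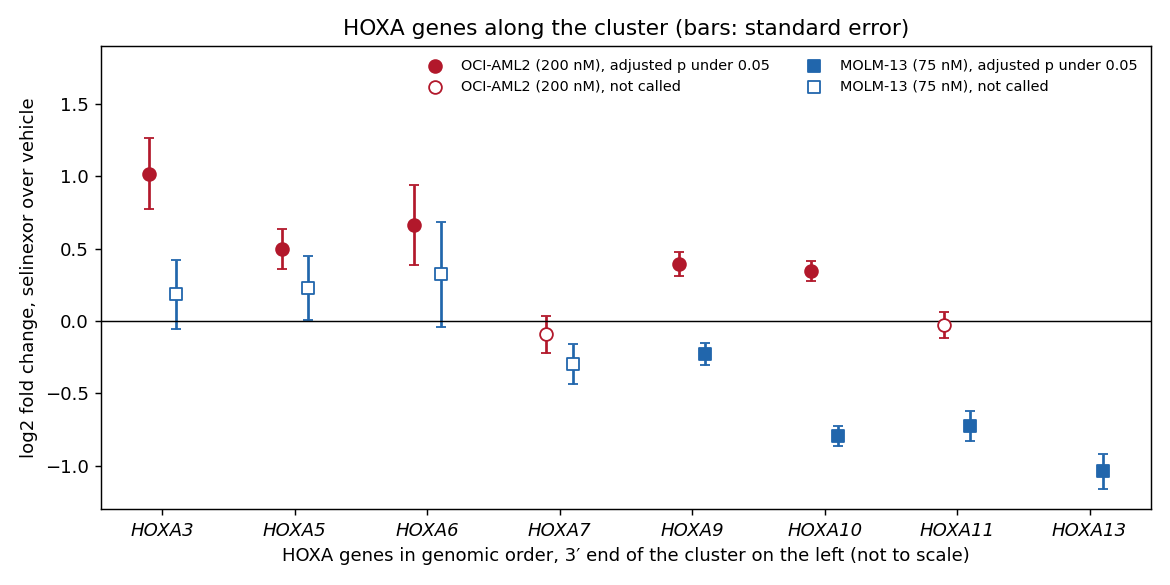
Log2 fold change of selinexor over vehicle (vertical axis, bars are standard errors) for HOXA genes from HOXA3 to HOXA13 that passed the filter, in genomic order with the 3′ end of the cluster on the left; OCI-AML2 in red circles, MOLM-13 in blue squares, filled where the adjusted p passed. In MOLM-13 the called genes are HOXA9 at -0.23, HOXA10 at -0.79, HOXA11 at -0.72 and HOXA13 at -1.04, and HOXA13 has no OCI-AML2 point because it was under the filter there.

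MEIS1, the TALE cofactor that speeds HOXA9-driven leukaemia, fell in both lines. It had 19.9, 20.7 and 19.3 CPM with selinexor and 26.9, 28.5 and 28.3 CPM with vehicle in OCI-AML2, a log2 fold change of -0.48 ± 0.096 (edgeR adjusted p = 2.99e-05). MOLM-13 cells had 22.6, 22.5 and 22.9 CPM with selinexor and 32.6, 35.7 and 31.4 CPM with vehicle, a log2 fold change of -0.55 ± 0.094 (adjusted p = 2.56e-07). Every selinexor library was below every vehicle library of its line. In the fit of all 12 libraries the response differed between the lines by 0.12, with a 95% interval of -0.15 to 0.39, which was not called.

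PBX3, the cofactor that stabilises HOXA9 and MEIS1 on DNA, had small log2 fold changes. It had 72.2, 74.0 and 72.4 CPM with selinexor and 82.2, 79.2 and 84.6 CPM with vehicle in OCI-AML2, and 74.7, 73.4 and 76.9 CPM with selinexor and 82.0, 86.0 and 77.3 CPM with vehicle in MOLM-13. Selinexor libraries were below vehicle in both lines without overlap. The log2 fold change was -0.17 ± 0.060 in OCI-AML2 (edgeR adjusted p = 0.0119), where the call was lost under upper quartile scaling (-0.12) and in a fit of all 12 libraries (-0.13), with adjusted p of 0.00101 to 0.0874 over 13 alternatives. In MOLM-13 it was -0.13 ± 0.060 and not called (adjusted p = 0.0626), and it passed in 3 of 13 alternatives (adjusted p of 0.0191 to 0.436), one of them without vehicle library 3 (-0.17). The difference between the lines in the fit of all 12 libraries was 0.0031, with a 95% interval of -0.17 to 0.17. The gap between the changes fitted within each line had the opposite sign, as those were scaled apart.

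Of the other 9 TALE homeobox genes, 5 were tested in each line. TGIF1, a repressor of retinoid and TGF-β signalling, rose in both, by 0.66 ± 0.091 in OCI-AML2 (edgeR adjusted p = 4e-08) and 0.94 ± 0.099 in MOLM-13 (adjusted p = 1.15e-14) on the log2 scale. MEIS2, the closest relative of MEIS1, averaged 46.3 ± 0.49 CPM with selinexor and 45.5 ± 2.9 CPM with vehicle in OCI-AML2, and 50.8 ± 3.2 and 77.8 ± 3.5 CPM in MOLM-13 (SD, n = 3 each). It fell in MOLM-13 by 0.61 ± 0.067 (adjusted p = 4.54e-14), and the difference between the lines, 0.69 ± 0.10, was called (adjusted p = 2.84e-08). PBX2, a PBX family member, rose by 0.22 ± 0.069 in OCI-AML2, a call lost without selinexor library 2 (0.20) or vehicle library 2 (0.12), and by 0.40 ± 0.056 in MOLM-13. PKNOX1, a partner of PBX proteins, fell by 0.29 ± 0.10 in OCI-AML2, a call lost without selinexor library 1 (-0.26) or vehicle library 1 (-0.24), and by 0.66 ± 0.098 in MOLM-13. In all, 2 rose and 1 fell in OCI-AML2, and 2 rose and 2 fell in MOLM-13, with median log2 fold changes of 0.082 and 0.061, beside -0.0016 and 0.0091 over all genes. Of all genes tested, 31.3% rose and 31.8% fell in OCI-AML2, and 31.8% rose and 31.8% fell in MOLM-13.

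MEF2C, a MADS-box factor of myeloid progenitors that marks KMT2A-rearranged leukaemia, fell in both lines, and further in MOLM-13. It had 204.8, 211.3 and 209.3 CPM with selinexor and 296.1, 287.1 and 290.7 CPM with vehicle in OCI-AML2, a log2 fold change of -0.48 ± 0.041 (edgeR adjusted p = 7.26e-14). In MOLM-13 it had 133.9, 133.2 and 144.2 CPM with selinexor and 245.0, 226.9 and 235.5 CPM with vehicle, a log2 fold change of -0.78 ± 0.044 (adjusted p = 6.24e-31). The groups did not overlap in either line, and selinexor levels were 0.716 times vehicle in OCI-AML2 and 0.581 times vehicle in MOLM-13. The difference between the lines was 0.35 ± 0.061 (adjusted p = 2.64e-06).

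MYB, a transcription factor of haematopoietic progenitors on which AML cells depend, rose in both lines. It had 394.0, 405.5 and 405.0 CPM with selinexor and 296.3, 281.6 and 282.4 CPM with vehicle in OCI-AML2, a log2 fold change of 0.49 ± 0.040 (edgeR adjusted p = 2.17e-14). In MOLM-13 it had 551.4, 549.8 and 567.4 CPM with selinexor and 423.0, 397.4 and 407.5 CPM with vehicle, a log2 fold change of 0.44 ± 0.034 (adjusted p = 9.29e-22). No libraries overlapped between the groups, and levels with selinexor were 1.40 and 1.36 times vehicle. In the fit of all 12 libraries the response differed between the lines by 0.092, with a 95% interval of -0.015 to 0.20, which was not called.

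Of 5 relatives of MYB and MEF2C, 4 were tested. MYBL2, the MYB family member of cycling cells, averaged 143.2 ± 4.1 CPM with selinexor and 321.8 ± 7.7 CPM with vehicle in OCI-AML2, and 81.8 ± 5.6 and 301.1 ± 8.4 CPM in MOLM-13 (SD, n = 3 each). It fell by 1.17 ± 0.043 and 1.88 ± 0.047 on the log2 scale (edgeR adjusted p = 3.24e-26 and 2.65e-60). MYBL1, another MYB relative, fell by 0.73 ± 0.26 in OCI-AML2 and by 0.80 ± 0.25 in MOLM-13. The OCI-AML2 groups overlapped, and the call there was lost without selinexor library 1 (-0.47), selinexor library 3 (-0.62) or vehicle library 3 (-0.63), while without selinexor library 2 the change was -1.20. MEF2D, a MEF2 relative, averaged 465.4 ± 17 and 467.2 ± 4.2 CPM in OCI-AML2, and 891.9 ± 62 and 828.0 ± 38 CPM in MOLM-13, selinexor before vehicle, where its log2 fold change of 0.11 passed the test although the groups overlapped. That call was lost in 4 alternatives, among them without selinexor library 1 (0.10), selinexor library 2 (0.059) or vehicle library 1 (0.066).

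Across the lines, 4 of the 10 genes had a called difference in response, HOXA3, HOXA9, HOXA10 and MEF2C, against 30.1% of 12530 genes tested. All 4 of these differences were positive, so the change in OCI-AML2 lay above that in MOLM-13. Positive calls were thus 4 of 10 members, against 19% of all genes tested, and 63.2% of all calls were positive. HOXA3 lost its call in 15 of 18 alternatives. HOXA9, HOXA10 and MEF2C kept the call and its sign in all 18 alternatives. In vehicle alone, 7 of the 10 genes differed between OCI-AML2 and MOLM-13, where 71.2% of genes did. HOXA5, at 9.82 ± 1.0 CPM in OCI-AML2 and 4.86 ± 0.92 CPM in MOLM-13, and MEF2C, at 286.1 ± 4.6 and 237.5 ± 9.0 CPM, were higher in OCI-AML2 (2 of 10, against 36.2% of all genes). HOXA3, HOXA9, HOXA10, MEIS1 and MYB were lower there (5 of 10, against 35% of all genes), HOXA10 at 49.2 ± 2.0 CPM in OCI-AML2 and 74.8 ± 3.2 CPM in MOLM-13 (log2 fold change -0.61 ± 0.067, edgeR adjusted p = 2.41e-13). Without MOLM-13 vehicle library 2, HOXA3 (-0.60) and MEIS1 (-0.19) lost that call, and HOXA6 gained one without OCI-AML2 vehicle library 2 (0.85) or MOLM-13 vehicle library 1 (0.95). The vehicle libraries also enter each line's response, so these sets of values are not independent of each other.

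Per kilobase of annotated exon, MYB was the highest of the 10 genes in every group, at 74.0 ± 1.3 CPM per kb in OCI-AML2 with selinexor, 51.3 ± 1.5 in OCI-AML2 with vehicle, 101.6 ± 1.8 in MOLM-13 with selinexor and 75.1 ± 2.3 in MOLM-13 with vehicle (SD, n = 3 each). HOXA3 had the lowest mean, at 1.21 ± 0.26, 0.574 ± 0.011, 1.08 ± 0.21 and 0.957 ± 0.11 CPM per kb in the same order, but its libraries overlapped those of HOXA6 in both MOLM-13 groups. In OCI-AML2 with selinexor, MEF2C, HOXA10 and PBX3 followed MYB at 17.9, 17.4 and 16.3 CPM per kb, and neighbours among these overlapped; with vehicle the order was MEF2C, PBX3 and HOXA10 at 24.3, 17.8 and 13.3, without overlap. In MOLM-13 with selinexor, PBX3 came second at 16.6, above HOXA9 at 13.4, MEF2C at 11.7 and HOXA10 at 11.6, of which MEF2C and HOXA10 overlapped; with vehicle MEF2C and HOXA10 overlapped at 20.2 each. MEIS1 stood at 1.85, 2.51, 2.08 and 3.06 CPM per kb in the 4 groups. These lengths are the union of all annotated exons, so a gene that uses a short form is understated.

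**Figure D4:**
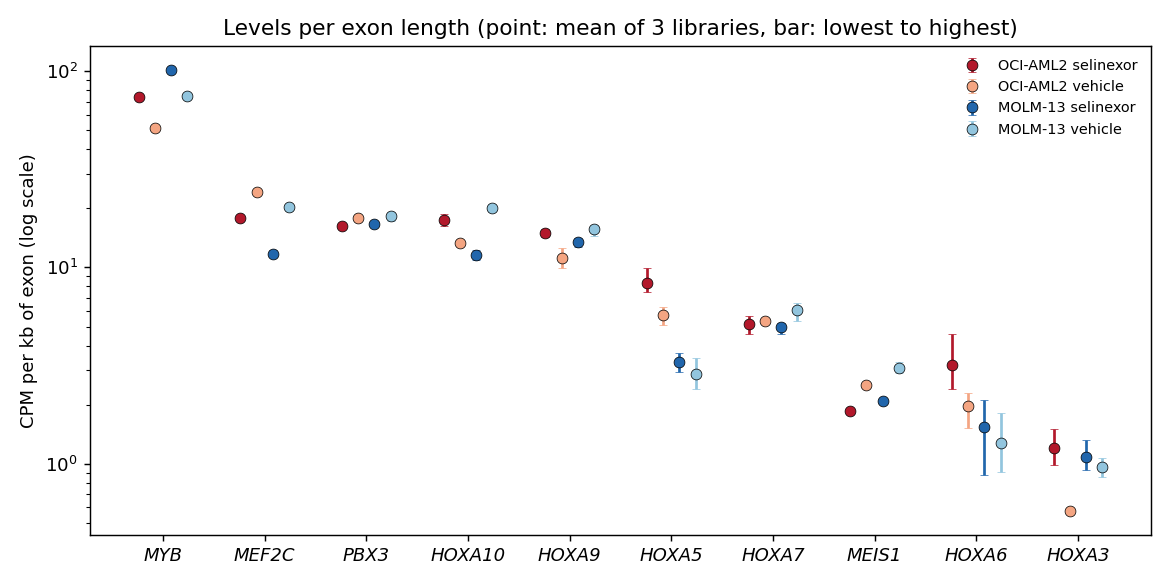
TMM-scaled CPM per kilobase of exon on a log axis for the 10 genes, scaled over all 12 libraries, with the mean (point) and the lowest and highest of 3 libraries (bar) for each group. MYB is the highest in every group, from 51.3 to 101.6 CPM per kb, and HOXA3 the lowest or level with HOXA6, from 0.574 to 1.21.

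Of 20 known targets of HOXA9, MEIS1 or KMT2A fusions, 15 were tested in each line, though not the same 15. In OCI-AML2 9 rose and 2 fell (median log2 fold change 0.25), and in MOLM-13 8 rose and 4 fell (median 0.12), beside medians of -0.0016 and 0.0091 over all genes. Of all genes tested, 31.3% rose and 31.8% fell in OCI-AML2, and 31.8% rose and 31.8% fell in MOLM-13. FLT3, a receptor kinase gene under HOXA9 and MEIS1, rose by 1.05 ± 0.048 in OCI-AML2 (202.5 ± 6.1 CPM with selinexor and 98.0 ± 0.37 CPM with vehicle) and by 0.39 ± 0.036 in MOLM-13 (394.5 ± 7.8 and 300.9 ± 5.7 CPM). MYC rose by 0.47 ± 0.038 and 0.55 ± 0.034, and LMO2, a haematopoietic adaptor protein, by 0.41 ± 0.047 and 0.71 ± 0.049, in OCI-AML2 and MOLM-13. TRIB2, an adaptor that promotes CEBPA breakdown, fell by 1.02 ± 0.11 in OCI-AML2 and was at 0 in MOLM-13, so it was not tested there. SATB1, a chromatin organiser, fell by 0.50 ± 0.041 in MOLM-13 (edgeR adjusted p = 7.15e-23 for FLT3 in OCI-AML2, 2.7e-11 for TRIB2 and 2.74e-20 for SATB1). SOX4, a factor of immature cells, fell by 0.32 ± 0.074 in OCI-AML2 and by 0.15 ± 0.056 in MOLM-13, where the call was lost with DESeq2, under upper quartile scaling (-0.077) and without selinexor library 1 (-0.12), selinexor library 2 (-0.13) or vehicle library 2 (-0.14). HMGA2, a chromatin protein of immature cells, fell by 0.40 ± 0.094 in MOLM-13. CPEB2, a regulator of mRNA translation, fell there by 0.29 ± 0.10 although the groups overlapped, and the call was lost under upper quartile scaling (-0.22) and without selinexor library 1 (-0.18) or vehicle library 1 (-0.24). FUT4, the enzyme that makes the CD15 sugar, rose by 0.36 ± 0.041 in OCI-AML2 and by 0.82 ± 0.045 in MOLM-13.

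By a rule of likeness, the genes whose levels followed each factor most closely over the 12 libraries, after each line's mean was removed, were listed among 10054 genes. They were PCMT1 (r = 0.94) and AKR1A1 (0.94) for HOXA9, CCDC34 (0.995), REEP4 (0.99) and PAXX (0.99) for MEIS1, and FNBP1 (0.995), FRAT1 (0.995) and MYORG (0.994) for MYB. Only 11 genes had an r above 0.9 with HOXA9, whose change has opposite signs in the lines, whereas 1468 did with MEIS1 and 1420 with MYB. These r values describe libraries that share line and treatment, and mostly restate which genes moved the same way.

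Markers of maturing myeloid cells and of other blood cells moved alongside. Summed levels of 12 monocyte and macrophage markers were 9771 to 10040 CPM with selinexor and 1824 to 2018 CPM with vehicle in OCI-AML2, and 1010 to 1061 and 187 to 191 CPM in MOLM-13, most of it from LYZ, the lysozyme gene. Of these, 4 rose and 1 fell in each line, of 8 tested in OCI-AML2 and 7 in MOLM-13. Over all genes tested, 31.3% rose and 31.8% fell in OCI-AML2, and 31.8% rose and 31.8% fell in MOLM-13, the background for each marker count. FCGR1A, a high-affinity IgG receptor, was the 1 that fell, by 0.39 ± 0.062 in OCI-AML2 and 0.79 ± 0.088 in MOLM-13, while TYROBP, a signalling adaptor, rose by 1.68 ± 0.047 and 1.28 ± 0.096. CD163 was at 0 in every selinexor library, as was FCN1 in all MOLM-13 libraries. Summed levels of 12 granulocyte markers were 4317 to 4454 CPM with selinexor and 1607 to 1631 CPM with vehicle in OCI-AML2, and 6031 to 6442 and 3630 to 3793 CPM in MOLM-13, with FCGR3B at 0 throughout and the secondary granule genes LTF, CAMP and LCN2 at 0 in MOLM-13. Of these, 5 rose and 3 fell of 8 tested in OCI-AML2, and 6 rose and 1 fell of 7 tested in MOLM-13. The falls were MPO (-0.53), PRTN3 (-0.22) and MMP9 (-2.86) in OCI-AML2 and CTSG (-0.56) in MOLM-13, all but MMP9 being primary granule genes. MPO (1.13) and PRTN3 (1.34) rose in MOLM-13, and CTSG (0.85) rose in OCI-AML2.

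Summed levels of 10 erythroid and megakaryocyte markers were 393.1 to 398.8 CPM with selinexor and 670.5 to 724.7 CPM with vehicle in OCI-AML2, and 126.2 to 134.0 and 263.8 to 265.4 CPM in MOLM-13, with HBB and HBA1 at 0 throughout. From 4 to 6 of the 10 were at 0 in a group, and only 3 were tested in each line. Of these, 1 rose and 1 fell in OCI-AML2, where 31.3% of all genes rose and 31.8% fell. In MOLM-13 2 of the 3 fell, against 31.8% of all genes. TFRC, the transferrin receptor gene that cycling cells also express, made up most of these sums, so their fall is largely that of TFRC. It fell by 0.90 ± 0.040 in OCI-AML2 and 1.24 ± 0.046 in MOLM-13 on the log2 scale. ITGA2B, a megakaryocyte integrin, rose by 3.32 ± 0.22 in OCI-AML2, and GP9, a platelet glycoprotein, fell by 1.37 ± 0.43 in MOLM-13, a call lost without vehicle library 3 (-1.01). Summed levels of 10 T, B and NK lymphocyte markers were 113.2 to 119.4 CPM with selinexor and 71.5 to 75.7 CPM with vehicle in OCI-AML2, and 119.3 to 127.2 and 140.7 to 146.5 CPM in MOLM-13, with CD3E, CD2 and MS4A1 at 0 throughout. All 3 lymphocyte markers tested rose in OCI-AML2, where 31.3% of all genes rose, namely NCAM1 (0.67 ± 0.060), PAX5 (1.02 ± 0.22) and NKG7 (0.45 ± 0.13). In MOLM-13, where 31.8% of all genes fell, NCAM1 fell by 0.25 ± 0.051 while the other 2 were not called. CD34, the marker of the most immature cells, was at 0 in all 12 libraries. The part of these markers in the changes of the HOXA genes and their partners was not tested.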

How the data were processed

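Per the labels' protocols, the libraries were poly(A)-selected and do not keep strand. The submitters' processing notes name STAR, the hg38 build, R 3.6.1 and DESeq2. How reads were counted, and on which gene models, is not given in the sources used here. For each line the authors deposited raw counts per gene symbol and library, in whole numbers. They also deposited log2 fold changes with standard errors for MOLM-13, which give vehicle over selinexor. The line was read from the table's initial and the treatment from the column letter, and columns carry no replicate number.

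From the counts, edgeR 4.0.16 (R 4.3.3) gave TMM scaling, filterByExpr (minimum count 10, minimum total 15), robust quasi-likelihood F tests, two-sided, and Benjamini-Hochberg adjusted p over all genes, with a threshold of 0.05. Standard errors are those that give the F statistic, and intervals are 95%. Each line was fitted with its 6 libraries. Differences between the lines were fitted on all 12 libraries as 4 groups, over genes in both tables. These libraries were scaled together, so a difference need not equal the gap between the changes fitted within each line. Alternatives used DESeq2 1.42.0 and limma 3.58.1, and the fits were tested on simulated data. Far fewer genes were changed in the simulation than were called here, so it does not test the scaling in these data. Gene models came from GENCODE 29 (GRCh38) and promoters from RefSeq (GRCh38.p14), and motif letters were searched on both strands. CPM uses library totals times the TMM factor. Intervals rest on a spread between libraries that edgeR estimates partly from all genes tested. In the fits within each line, the members had 41.3 to 42.2 degrees of freedom in OCI-AML2 and 98.2 in MOLM-13. Intervals cover the spread between libraries only as far as 3 libraries per group show it, and floors cover counting error only.

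The members and the gene lists were chosen with earlier results of these data known. All 10 members are named. From the other lists, up to 3 called genes with the smallest p per line could be named, and any where 5 or fewer were called in a direction. For HOXA9, MEIS1 and MYB, the 3 genes with the highest Pearson correlation of log2(CPM + 0.5) among genes with a mean of at least 5 CPM are named, less any that is not reported here.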

Additional observations from a re-analysis of the deposited data

Results flagged for a closer look

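For 4 of the 10 genes the response to selinexor differed between the lines by the test of the difference itself (edgeR quasi-likelihood test, 12 libraries). The log2 difference, OCI-AML2 minus MOLM-13, was 0.88 for HOXA3, 0.67 for HOXA9, 1.19 for HOXA10 and 0.35 for MEF2C. HOXA3 lost this call in 15 of 18 alternatives, so that 3 of the 10 genes were called under every alternative scaling, filter and test. HOXA9 and HOXA10 rose in OCI-AML2 and fell in MOLM-13, MEF2C fell in both, and HOXA3 rose in OCI-AML2 and was not called in MOLM-13. The lines received 200 and 75 nM, so line and dose cannot be told apart. Single outlying libraries were looked for only by comparing pairs of libraries within a group and by leaving out 1 library at a time.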

How the results depend on the processing

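Of 620 values for the 10 genes under the alternatives (other scalings, no filter, DESeq2, limma voom, a joint fit, and each library left out), 565 kept direction and side of the threshold, 27 lost a call, 11 gained one and 17 changed sign, all 17 of them for values that were not called. For 228 called changes of genes in the other lists, 3383 of 3518 values kept the call and 135 lost it, and gains by genes not called were left out of these counts. The sign changes were for PBX3's difference between the lines, which was 0.0031 and became -0.033 with DESeq2's size factors, -0.055 with upper quartile scaling, -0.071 with library totals only and -0.033 with DESeq2, and for PBX3 in vehicle, which was -0.032 and became 0.019 with library totals only. With single libraries left out, the difference ran from -0.13 to 0.043 for PBX3, from -0.030 to 0.16 for MEIS1 and from -0.013 to 0.11 for MYB, and PBX3 in vehicle from -0.072 to 0.047. The number of genes with a higher response in OCI-AML2, 2380, ran from 1450 to 2236 with 1 library left out, and the number with a lower one, 1388, from 1228 to 2084. Calls for a higher response made up 63.2% of all, but 50.8% with upper quartile scaling and 47% with library totals only. They made up 43.2% without MOLM-13 vehicle library 2, and 43.3%, 43.5% and 44.2% without OCI-AML2 vehicle libraries 1, 2 and 3. With any other library left out the share was 62.8% to 63.8%. The median difference over all genes was 0.040, and -0.052 to -0.048 without MOLM-13 vehicle library 2 or any 1 OCI-AML2 vehicle library. With any other library left out it was 0.038 to 0.045. It was -0.018 with upper quartile scaling and -0.034 with library totals only. Standard errors of differences between the lines do not cover this shift of the median. The cause of these shifts was not tested. No paired analysis was possible because the columns carry no replicate numbers. Adding the HOXA10-HOXA9 readthrough to HOXA9 was not run, since no row carries that symbol.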

Other observations

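Genes of the HOXB, HOXC and HOXD clusters were close to the limit of detection. Their 28 genes summed to 3.13 to 3.68 CPM with selinexor and 3.14 to 3.92 CPM with vehicle in OCI-AML2, and to 7.75 to 8.45 and 5.96 to 6.91 CPM in MOLM-13. HOXC10 was the one gene tested in OCI-AML2, and HOXC4, HOXC10 and HOXB13 were those tested in MOLM-13. By edgeR, and by DESeq2, 0 of them were called in either line, and 0 of them had an unadjusted p under 0.05. Of all genes tested, edgeR called 63.1% in OCI-AML2 and 63.6% in MOLM-13.

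Among 15 genes for KMT2A and its cofactors, all tested, 6 rose and 6 fell in OCI-AML2, and 3 rose and 6 fell in MOLM-13. Over all genes tested, 31.3% rose and 31.8% fell in OCI-AML2, and 31.8% rose and 31.8% fell in MOLM-13, which is the background for these counts. In OCI-AML2 the rises and falls were 3 and 7 with library totals only, 4 and 6 with DESeq2, and 7 and 6 with upper quartile scaling. In MOLM-13 there were 3 rises and 5 or 6 falls under every scaling, filter and test. DOT1L, the histone H3 lysine methyltransferase recruited by KMT2A fusions, fell by 0.43 ± 0.053 on the log2 scale in OCI-AML2 (edgeR adjusted p = 2.29e-09) and by 0.30 ± 0.039 in MOLM-13 (adjusted p = 8.01e-11). PSIP1, which encodes the tether of KMT2A to chromatin, fell by 0.22 ± 0.057 in OCI-AML2 and by 0.85 ± 0.069 in MOLM-13. Its difference between the lines in the fit of all 12 libraries, 0.68 ± 0.088, was called (edgeR adjusted p = 9.13e-10). WDR5, a core subunit of the complex, fell by 0.32 ± 0.049 and 0.39 ± 0.048. KMT2A itself rose by 0.40 ± 0.075 in OCI-AML2 and 0.28 ± 0.084 in MOLM-13.

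Of 20 stem and progenitor factors, 4 rose and 5 fell among 11 tested in OCI-AML2, and 4 rose and 3 fell among 12 tested in MOLM-13. The shares over all genes tested were 31.3% rising and 31.8% falling in OCI-AML2, and 31.8% each way in MOLM-13. They are also the background for the blast markers below. BMI1, a polycomb factor of self-renewal, fell by 0.36 ± 0.11 in OCI-AML2, where the groups overlapped and the call was lost without selinexor library 1 (-0.35) or 2 (-0.33), and by 0.35 ± 0.041 in MOLM-13 (edgeR adjusted p = 4.64e-13). ANGPT1, a niche signal expressed by stem cells, fell by 1.22 ± 0.38 and 1.47 ± 0.25. ETV6 rose by 0.80 ± 0.067 in MOLM-13 (adjusted p = 6.11e-20) and by 0.26 ± 0.079 in OCI-AML2, where the groups overlapped and the value was 0.16 without vehicle library 3 and 0.38 without vehicle library 2. Of 5 blast identity markers tested, 4 rose in each line, CD38 by 1.09 ± 0.054 in OCI-AML2 and 1.60 ± 0.079 in MOLM-13 and CEBPA by 0.60 ± 0.038 and 0.97 ± 0.031.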
